A study of Mus musculus with 6 samples.

Results

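RefSeq noncoding RNA entries on a mouse liver expression array are described here, that is, array probes designed to a RefSeq transcript accession with the NR_ prefix, which marks transcripts without an annotated protein. The members were selected on detection: a probe was kept if, in at least 1 genotype, the scanner software flagged it as well above background on each of the 3 arrays. This left 801 of 2477 noncoding probes, out of 56605 non-control probes on the array, and the 801 probes stood for 720 named genes plus 38 probes whose accession had no gene in the RefSeq table used for names. Livers came from 3 male mice with a liver-specific knockout of Elovl6 (LKO) and 3 male control mice whose titles name them as Flox. All 6 mice ate a high-sucrose diet for 14 days, were fasted for 4 hours and gave 1 array each, all on 1 slide scanned on 1 day. Ages, the strain and the Cre line behind the knockout are not given in the sources used here, and with 3 mice per genotype an exact permutation test of a single value cannot go below p = 0.1.

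Noncoding RNAs do several kinds of work in a liver cell. Small structural RNAs such as the spliceosomal snRNAs, the snoRNAs and the RNA subunits of RNase P form the core of particles that splice, modify and cut other RNAs. Long noncoding RNAs (lncRNAs) can scaffold nuclear bodies, silence imprinted genes or carry smaller RNAs in their introns, and many start beside a coding gene or run antisense to one. Transcribed pseudogenes are copies of coding genes whose RNA has lost the reading frame, so a probe for one can share sequence with its parent gene. Elovl6, the deleted gene, encodes the enzyme that elongates palmitate to stearate.

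The sequences behind a pair of results are given first. The lncRNA gene 3110045C21Rik and the coding gene Hsd17b7, an enzyme of cholesterol synthesis, lie head to head on chromosome 1. Their promoter windows in RefSeq (GRCm38.p6, 250 bases before to 50 after each start) share 297 of 300 bases, and both genes were lower in LKO. Capitals mark CCAAT and CACGTG, searched on both strands.

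3110045C21Rik promoter at chr1:169969159-169969458, plus strand: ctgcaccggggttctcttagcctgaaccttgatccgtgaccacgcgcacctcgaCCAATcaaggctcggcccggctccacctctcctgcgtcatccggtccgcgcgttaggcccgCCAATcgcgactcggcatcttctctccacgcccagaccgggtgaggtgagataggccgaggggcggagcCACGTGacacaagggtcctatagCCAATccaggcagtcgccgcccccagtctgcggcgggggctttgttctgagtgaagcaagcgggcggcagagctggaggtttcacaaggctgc

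The window held CCAAT at 3 places and CACGTG at 1, and these did not overlap. Over all 27025 promoter windows in the table, 37.9% held CCAAT at 1 or more places on either strand and 7.24% held CACGTG. The letters GGGCGG, called the GC box below, were present at 3 places here and in 35.9% of all windows.

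Several members span microRNA genes, and the mature microRNAs inside them are shown because their host transcripts are what the array measured. Capitals mark the seed, bases 2 to 8, which pairs with target messages. Sequences are from RefSeq, GRCm38.p6, and read 5′ to 3′.

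miR-223-3p, inside F630028O10Rik: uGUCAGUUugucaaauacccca
miR-15a-5p, inside Dleu2: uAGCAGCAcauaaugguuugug
miR-16-5p, inside Dleu2: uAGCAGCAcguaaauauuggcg
miR-291a-3p, inside D7Ertd143e: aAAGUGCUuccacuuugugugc
miR-294-3p, inside D7Ertd143e: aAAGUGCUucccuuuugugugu
miR-295-3p, inside D7Ertd143e: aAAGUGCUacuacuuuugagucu
miR-22-3p, inside Mir22hg: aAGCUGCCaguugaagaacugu
miR-100-5p, inside Mir100hg: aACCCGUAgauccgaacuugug
miR-101a-3p, inside E130102H24Rik: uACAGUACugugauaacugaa

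Both microRNAs of Dleu2 carry 1 seed, and the 3 microRNAs shown for D7Ertd143e share another. Mature microRNAs themselves were not measured on this array.

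The labels held on the deleted gene and on the tissue. Elovl6 signal was 2133%, 4299% and 2281% of the array's 75th percentile in control mice 1 to 3 and 22.8%, 33.4% and 36.4% in LKO mice 1 to 3, which is 91.0-fold lower (limma adjusted p = 0.00264). That scale, the percent of the same array's 75th percentile of non-control signal, is used below for levels, and changes are log2 differences, LKO minus control, with the standard error of the limma fit. All 10 hepatocyte markers were detected, and their summed level was 4697 to 4901 times the 75th percentile in controls and 4953 to 5226 times it in LKO. Between 52.1% and 56.6% of spots on each array were well above background, and no spot was saturated.

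Detection was less common among noncoding than among coding probes. Of the noncoding probes 32.3% met the detection rule, against 63.1% of 29638 probes for NM_ entries, the RefSeq coding transcripts. On single arrays the noncoding share ran from 32.8% (control 1) to 38.0% (control 2) and the coding share from 63.6% to 67.4%, so every coding share lay above every noncoding share, and the genotypes overlapped within each class. The most common outcome was absence: 1361 noncoding probes (54.95%) were well above background on none of the 6 arrays, against 27.7% of coding probes. Because detection chose the members, these shares are descriptions without a test. Most members, 734, were detected on all 6 arrays, and of the remaining 67 members 29 met the rule only in controls and 38 only in LKO. Those 67 just inside the rule had a median signal of 23.96 units, and the 66 probes just outside it, with 2 arrays of a genotype, had 18.1 units.

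Detection differed by kind of RNA. Of 29 small structural RNA probes 28 were detected (96.6%). Despite its name, that class also holds Rn28s1, the 28S ribosomal RNA, here and below. Transcribed pseudogenes followed with 135 of 276 (48.9%), then noncoding transcripts of coding genes with 24 of 51 (47.1%). The lncRNA class was largest and least often detected, 576 of 2038 probes (28.3%). Some well-known or liver lncRNAs were among the absent ones. No array showed signal well above background for Xist, which coats the inactive X chromosome of females, Dnm3os, Miat or Gm15441. H19, an imprinted RNA of fetal liver, was above background on 2 control arrays and 1 LKO array, short of the rule.

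Promoter composition, which the detection rule did not use, had different medians in detected and undetected lncRNA genes. The promoter windows of 437 detected lncRNA genes had a median GC content of 54.3% (quartiles 47.3% to 64.3%), those of 1072 undetected lncRNA genes 50% (45.3% to 55.7%), and those of 10677 detected coding genes 59.7% (53.0% to 66.3%). The GC box, on either strand, was in 39.1%, 23.7% and 59.2% of these windows in the same order, and CCAAT in 36.6%, 38.8% and 38.4%. In these 3 sets 80% to 80.4% of the genes had a window in the table. Undetected coding genes are not compared, because 5290 of 6659 of them (79.4%) had a window, under the 80% asked of a set. Whether the difference is particular to lncRNAs is therefore not shown here. The genes are not independent replicates, and no test was made.

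Detected noncoding RNAs were dimmer than detected coding RNAs. The median signal of members was 92.1, 91.6 and 90.8 units in control mice 1 to 3 and 92.8, 88.0 and 94.5 in LKO mice 1 to 3. Detected coding probes had medians of 308, 295 and 299 units in controls and 278, 271 and 280 in LKO. The gap was 1.65 ± 0.072 on the log2 scale (SD, n = 6 arrays), a ratio of 3.15, and 68.8% of members lay below the coding median. In controls the gap was 1.72 ± 0.026 and in LKO 1.59 ± 0.027 (SD, n = 3 each), with no overlap between genotypes. The members behind it include 38 that met the rule only in LKO and 29 only in controls, so the contrast is not free of the rule. It was not computed by genotype over members on all 6 arrays, and it was not tested. A signal depends on the probe as well as on the RNA, so these are distributions over probes, not a comparison of any 1 probe with another.

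**Figure D1:**
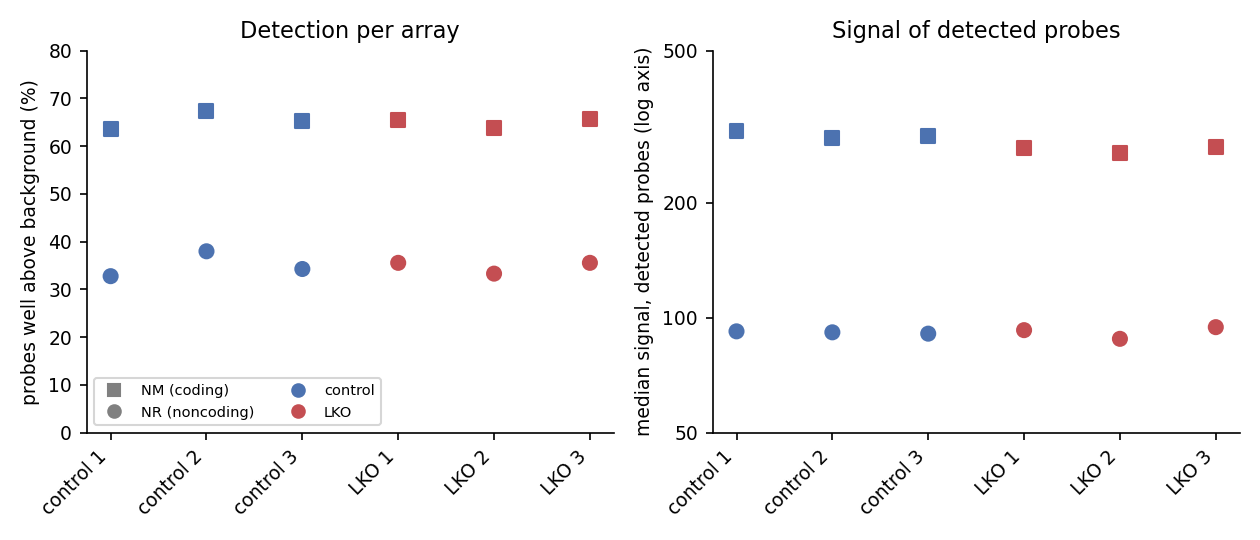
Share of probes well above background (left, percent) and median processed signal of detected probes (right, log axis) on each of the 6 arrays, squares for coding (NM) and circles for noncoding (NR) probes, blue for control and red for LKO. Noncoding shares stay between 32.8% and 38.0% and coding shares between 63.6% and 67.4%, and the noncoding median signal stays between 88.0 and 94.5 units.

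At the top of the range stood ribosomal and other abundant RNAs. Rn28s1, the 28S ribosomal RNA, was the brightest member, at 49557% to 69907% of the 75th percentile in controls and 59416% to 65705% in LKO. Rn4.5s, a small RNA of rodents, reached 25190% to 26395% in controls and 24252% to 31551% in LKO. The groups overlapped for both. The lncRNA AA536875 read 27991%, 25308% and 21901% in controls and 27235%, 34084% and 35520% in LKO, so LKO 1 lay among the controls. Pseudogenes filled much of the rest of the 10 brightest members, among them Gm5523, Gm12070, Gm6607 and Gm6548, whose probes may also bind the parent messages.

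Comparing LKO with control asks which of these RNAs respond to loss of the elongase in liver. No member passed limma's Benjamini-Hochberg adjusted p of 0.05, where 0.0215% of all 27950 probes tested did (6 probes, among them Elovl6). At an unadjusted p under 0.05, 80 members (9.99%) were higher in LKO against 5.42% of all probes tested, and 40 (4.99%) were lower against 5.4%. Among coding probes the same shares were 4.74% and 5.92%. Noncoding probes with separated groups followed the same pattern: in 107 members (13.4%) every LKO mouse lay above every control, against 7.9% of all probes, and in 57 (7.12%) every LKO mouse lay below, against 9.11%. The share of members lower in LKO was thus at or under the background, and the share higher was above it.

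This lean toward higher values was small and depended on the scale. The median change was 0.05 over members (485 higher, 316 lower), -0.01 over coding probes and 0.00 over all probes. When arrays were scaled to equal medians instead of equal 75th percentiles, 51 of 801 members were higher and 54 lower at an unadjusted p under 0.05. Of all 27950 probes tested, 926 were then higher and 2137 lower. The share of members higher thus stayed above that of all probes, and the share lower stayed under it. On that scale the median was 0.00 for members and -0.05 for all probes. The distance between members and all probes was thus 0.05 on both scales. It was 0.025 with normexp, a background correction described below. With no filter on dim probes it was 0.026, there taken over all 2477 noncoding probes. Members detected through only 1 genotype can differ because of the rule itself. Among the 734 detected on all 6 arrays the counts were 66 higher and 33 lower, with a median of 0.05. In a fit of only the 26332 probes detected on all 6 arrays, 69 of the 734 were higher and 36 lower. Of all probes in that fit 1415 were higher and 1408 lower. With the tested probes cut into 4 equal bins by signal, the lean was largest in the dimmest bin, where the median change was 0.10 for 317 members and -0.01 for 3534 coding probes, and it was 0.02 for the 132 members of the brightest bin.

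Kinds of noncoding RNA leaned differently. Small structural RNAs had a median change of 0.34 with 27 of 28 probes higher, where 50.8% of all probes tested were higher, and 8 of the 28 (28.6%) were higher at an unadjusted p under 0.05, against 5.42% of all probes. Of the 28, 5 were members through the LKO arrays alone (Snora74a, Snora78, Scarna13, Snora23 and Rprl1), and over the 23 seen on all 6 arrays the median was 0.33, with 22 higher and 7 at an unadjusted p under 0.05. The lncRNAs had a median of 0.06, with 360 higher and 216 lower. Transcribed pseudogenes went the other way, with a median of -0.02, 54 higher and 81 lower. At an unadjusted p under 0.05, 7 of 135 pseudogene probes (5.19%) were higher, near the 5.42% of all probes, and 13 (9.63%) were lower, against 5.4%. The counts describe probes of the same 6 livers, and no test was made over a class.

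**Figure D2:**
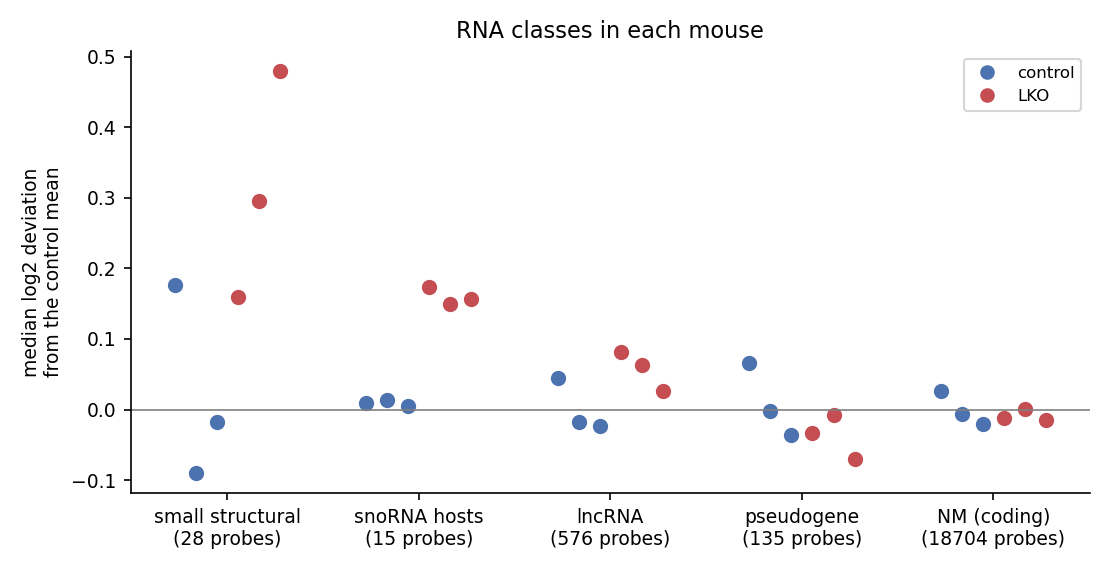
Median log2 deviation from the control mean over the probes of each class, 1 point per mouse, blue for control 1 to 3 and red for LKO 1 to 3 from left to right. The 3 LKO points of the snoRNA hosts sit between 0.15 and 0.17 above control points at 0.014 or less, while for small structural RNAs control 1 (0.18) lies above LKO 1 (0.16).

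The small structural RNAs were higher in LKO across most of their functions, with the mice less clearly apart. Their median deviation from the control mean was 0.18, -0.09 and -0.02 in control mice 1 to 3 and 0.16, 0.30 and 0.48 in LKO mice 1 to 3. Control 1 thus lay beside LKO 1, and LKO 3 was highest. Without LKO 3 the median change was 0.22 and without control 1 it was 0.48. Most of these RNAs carry no poly(A) tail, while kits of the type named in the labels prime from poly(A), so the signal stands for the part of each RNA that was copied. RNA integrity values were not given in the sources used here, and their part in the result was not tested. The summed level of 4 neutrophil markers, 3 of them detected and Ngp not, was also highest in LKO 3. It was 1.102 to 2.134 times the 75th percentile in controls and 3.095, 7.649 and 16.2 times it in LKO mice 1 to 3. Summed levels of hepatocyte (5226), Kupffer cell (115), stellate cell (4.55) and bile duct (8.49) markers were highest in LKO 3 too. Those of endothelial, lymphocyte, erythroid, and pancreas and fat markers were not. The part of cell types in these values was not tested.

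Among RNA enzymes, the RNase P RNA Rpph1, which trims the leader of transfer RNA precursors, read 77.8%, 48.9% and 67.3% in controls and 88.5%, 106% and 99.9% in LKO. Every LKO mouse lay above every control, and the change was 0.62 ± 0.18 (unadjusted p = 0.0112, limma adjusted p = 0.327). The related Rprl2 had a change of 0.54 and Rprl3 one of 0.35, while Rprl1 stood at 0.17 and turned to -0.02 without LKO 2. Rmrp, the sister RNA of RNase MRP, read 79.97%, 55.7% and 48.4% in controls and 67.2%, 83.4% and 100% in LKO, so its groups overlapped.

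Spliceosomal and ribosome-making RNAs showed the same spread. Rnu2-10, a U2 snRNA, was tight in controls at 86.6%, 85.9% and 87.1% and read 96.3%, 157% and 142% in LKO, a change of 0.57 ± 0.18 (limma adjusted p = 0.364). Rnu3b1, a U3 RNA that guides the first cuts of ribosomal RNA, read 692%, 680% and 473% against 646%, 1181% and 1289%. Only LKO 2 and LKO 3 lay above the controls there. Rnu1a1, a U1 snRNA, had a change of 0.18 with overlapping groups, and Rnu12, of the minor spliceosome, was the 1 structural RNA with a value below 0, -0.04 ± 0.10.

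The snoRNAs, which guide chemical modification of ribosomal and spliceosomal RNA, were represented by 11 probes. All 11 had a value above 0, where 50.8% of all probes tested did. At an unadjusted p under 0.05, 3 of them were higher, against 5.42% of all probes. Snora74a, Snora78 and Snora23 were members through the LKO arrays alone, so the rule itself favoured a value above 0 for them. Snord33 read 40.8%, 36.5% and 37.6% in controls and 47.8%, 50.3% and 58.4% in LKO. All LKO mice were above all controls, and the change was 0.44 ± 0.11 (unadjusted p = 0.0051). Snord33 lies in an intron of the ribosomal protein gene Rpl13a, whose own probe had a change of 0.06 ± 0.10. Snora74a had a change of 0.82 and Snora47 one of 0.92, both without overlap between genotypes. Snora47 was well above background on all 6 arrays and Snora74a on 2 of the 3 control arrays, so that Snora74a was a member through LKO alone. With normexp, another background correction run on the scanner's median foreground and background signals, the values were 0.27 and 0.43.

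Other structural RNAs had smaller values. Rn7s1, a 7SL RNA of the signal recognition particle, read 1732%, 1418% and 1240% in controls and 1716%, 1962% and 1991% in LKO, a change of 0.38 ± 0.14. Rn7sk, which holds the elongation factor P-TEFb inactive, had a change of 0.30, and Terc, the template RNA of telomerase, one of 0.19. For these 3 RNAs LKO 1 or LKO 2 fell within the control range.

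**Figure D3:**
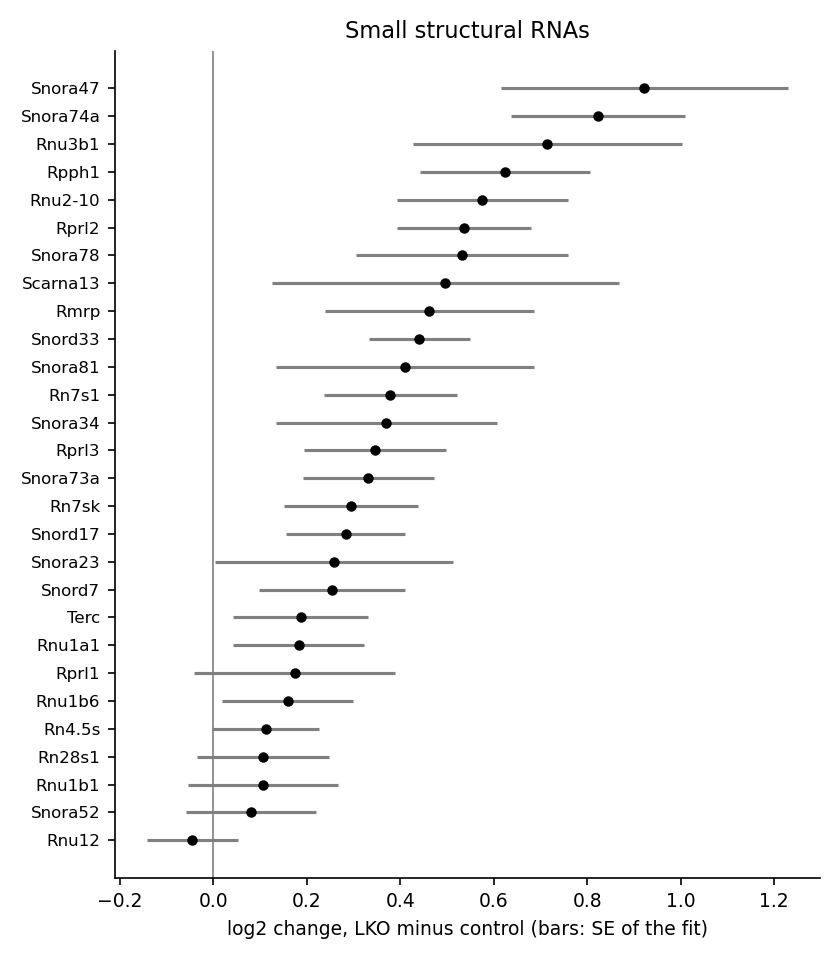
Change of each of the 28 detected small structural RNA probes, log2 LKO minus control, with the standard error of the limma fit as bars. Points run from -0.04 (Rnu12) to 0.92 (Snora47), and 27 of 28 lie above 0.

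Hosts of snoRNAs are spliced lncRNAs whose introns release snoRNAs, and here the exonic transcript is what the probe reads. Their 15 member probes, 14 with Snhg names plus Epb41l4aos, had a median change of 0.13, with 12 higher and 3 lower. The median deviation lay between 0.005 and 0.014 in the controls and was 0.17, 0.15 and 0.16 in LKO mice 1 to 3. With median scaling the median was 0.08. Snhg3, which carries Snora73a in an intron, read 175%, 193% and 182% in controls and 218%, 247% and 285% in LKO, all LKO mice being above the controls, a change of 0.44 ± 0.12 (unadjusted p = 0.00848, limma adjusted p = 0.301). Snora73a itself had a change of 0.33 with overlapping groups.

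Snhg12, which lies near Snhg3 on chromosome 4, read 166%, 169% and 159% in controls and 211%, 217% and 185% in LKO, again without overlap, a change of 0.31 ± 0.10. Snhg1, host of 8 snoRNAs, had a change of 0.32 ± 0.13 with LKO 1 inside the control range. Snhg9 went the other way at -0.21 ± 0.11. Over all 27 member genes that span a snoRNA, by position rather than name, 21 had a value above 0, where 50.8% of all probes did, and 4 of these passed an unadjusted p of 0.05, against 5.42% of all probes, the fourth being 5730408K05Rik at 0.43.

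Among nuclear lncRNAs, Neat1 was higher in LKO on both of its probes. Neat1 scaffolds paraspeckles, nuclear bodies that retain certain RNAs and proteins. The brighter probe read 17.1%, 18.7% and 23.9% in controls and 37.0%, 37.1% and 28.4% in LKO, with no overlap and a change of 0.78 ± 0.17 (unadjusted p = 0.00246, limma adjusted p = 0.248). The dimmer probe read 10.4%, 15.8% and 13.6% against 20.5%, 19.7% and 15.6%, where LKO 3 fell just inside the control range. With normexp the 2 values were 0.46 and 0.25.

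Dimmer lncRNAs led the list of higher members by p. Ctcflos, antisense by name to the testis factor gene Ctcfl, had the smallest p of all members. It read 16.2%, 18.95% and 16.4% in controls and 28.1%, 30.1% and 28.4% in LKO, a change of 0.75 ± 0.10 (unadjusted p = 1.43e-04, limma adjusted p = 0.138). Its groups were further apart than the spread within either, and no mouse stood out. The change was 0.41 with normexp.

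Dreh, an lncRNA described in mouse liver as a partner of vimentin, read 13.4%, 11.2% and 17.5% in controls and 28.4%, 27.9% and 38.6% in LKO. All LKO mice lay above all controls, with a change of 1.18 ± 0.20 (unadjusted p = 6.81e-04, limma adjusted p = 0.207), or 0.55 with normexp. The lncRNA 4930581F22Rik was the brightest of the leading 10, at 153%, 135% and 197% in controls and 380%, 291% and 281% in LKO. Its change was 0.98 ± 0.18, or 0.89 with normexp. The remaining leaders, 1700001L05Rik (0.90), 1700119H24Rik (0.95), Gm16157 (0.60), Gm8883 (0.75) and C730036E19Rik (0.81), had groups that did not overlap. With normexp their values were lower, 0.60, 0.41, 0.13, 0.45 and 0.34 in the same order. Their adjusted p values lay between 0.176 and 0.231.

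F630028O10Rik, the gene that spans Mir223, was higher in LKO as well. It read 9.25%, 10.4% and 8.81% in controls and 13.6%, 17.7% and 19.9% in LKO, without overlap, a change of 0.83 ± 0.16 (limma adjusted p = 0.217), or 0.17 with normexp. The microRNA is known from granulocytes. Of 4 neutrophil markers 3 were detected and each was higher in LKO at an unadjusted p under 0.05, while Ngp was not detected, and their summed level was 1.102 to 2.134 times the 75th percentile in controls and 3.095 to 16.2 times it in LKO. In whole liver more cells of a type and more RNA per cell cannot be told apart, and the part of neutrophils in the value of F630028O10Rik was not tested.

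The other microRNA hosts had smaller values. Of 19 member genes that span a microRNA, 15 had a value above 0, where 50.8% of all probes tested did, and the median was 0.17. F630028O10Rik alone was higher at an unadjusted p under 0.05, a count near the 5.42% of all probes. Dleu2, with the miR-15a and miR-16 precursors, read 106%, 74.5% and 98.1% in controls and 106%, 117% and 118% in LKO, a change of 0.31 ± 0.15 (unadjusted p = 0.0736). LKO 1 exceeded control 1 by under 1 percentage point. E130112N10Rik, with Mir8113, was at 0.44 without overlap, or 0.09 with normexp. Scarna13, the small RNA gene that spans Mir3069, was at 0.50 with overlapping groups. Carmn, which spans the miR-143 and miR-145 precursors, stood at -0.46 (unadjusted p = 0.0806), also with overlap. E130102H24Rik, with miR-101a, stood at 0.28 and Mir22hg at 0.12. Mir100hg was at 0.30 and turned to -0.02 with normexp, D7Ertd143e was at 0.05 with a sign that turned with the scaling, and Mirc35hg was at -0.12.

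Imprinted noncoding RNAs included Kcnq1ot1, which runs antisense within Kcnq1 and silences neighbouring genes on the paternal chromosome. Its 4 member probes had changes of 0.10, 0.23, 0.30 and 0.41. The probe with the brightest signal read 683%, 636% and 631% in controls and 875%, 767% and 765% in LKO, without overlap, a change of 0.30 ± 0.10 (unadjusted p = 0.0167, limma adjusted p = 0.363). Kcnq1, a potassium channel gene, read 32.4%, 38.4% and 38.7% in controls and 17.7%, 25.7% and 27.4% in LKO. That is the opposite direction, -0.65 ± 0.18 (unadjusted p = 0.00941), and a second Kcnq1 probe had -0.34. Peg13, another imprinted RNA, was at -0.25 with overlapping groups.

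Among members detected on all 6 arrays, pseudogenes and 3110045C21Rik led the lower side by p. Members through the control arrays alone could have smaller p-values, as did 2310068J16Rik (-0.81, unadjusted p = 9.34e-04) and E030013I19Rik (-0.69, unadjusted p = 0.00146), seen on 1 and 2 LKO arrays. Tubb2a-ps2, a tubulin pseudogene, read 212%, 142.96% and 162% in controls and 102%, 97.0% and 86.6% in LKO, a change of -0.84 ± 0.16 (limma adjusted p = 0.217). Gm5069 was measured by 3 member probes, with changes of -0.45, -0.25 and -0.22. Gm5065 stood at -0.96, Gm6498 at -0.31 and 1700028B04Rik at -0.30. For each of these pseudogenes, taking the probe of Gm5069 with the smallest p, no LKO mouse reached the controls.

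Among lower lncRNAs, Oip5os1, also called Cyrano, which is known to direct destruction of miR-7, read 66.3%, 71.3% and 78.0% in controls and 59.0%, 52.6% and 57.0% in LKO. The change was -0.35 ± 0.10 (unadjusted p = 0.0101, limma adjusted p = 0.319), and all LKO mice were below all controls. D330050I16Rik (-0.67), E130218I03Rik (-0.57) and Gm19710 (-0.48) also had groups without overlap. Oip5os1 was the 1 member of a list of well-known and liver lncRNAs and structural RNAs that was lower at an unadjusted p under 0.05. Of that list's 78 genes, 53 had a noncoding probe and 42 were detected, and of the 52 member probes 11 were higher (21.2%) and 1 lower at an unadjusted p under 0.05, against 5.42% and 5.4% of all probes, with a median of 0.17. The list was chosen with earlier results of these data known and supports nothing.

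The divergent pair 3110045C21Rik and Hsd17b7, whose shared promoter is printed above, was lower in LKO on both sides. The lncRNA read 35.9%, 27.0% and 28.5% in controls and 20.6%, 15.3% and 15.3% in LKO, with a change of -0.84 ± 0.17 (unadjusted p = 0.00168, limma adjusted p = 0.227), or -0.41 with normexp. Hsd17b7 read 1396%, 1121% and 1069% in controls and 719%, 726% and 858% in LKO, a change of -0.63 ± 0.13 (unadjusted p = 0.00249). A second Hsd17b7 probe had -0.75 ± 0.15. The genotypes did not overlap for any of these 3 probes, and control 1 was highest for each.

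**Figure D4:**
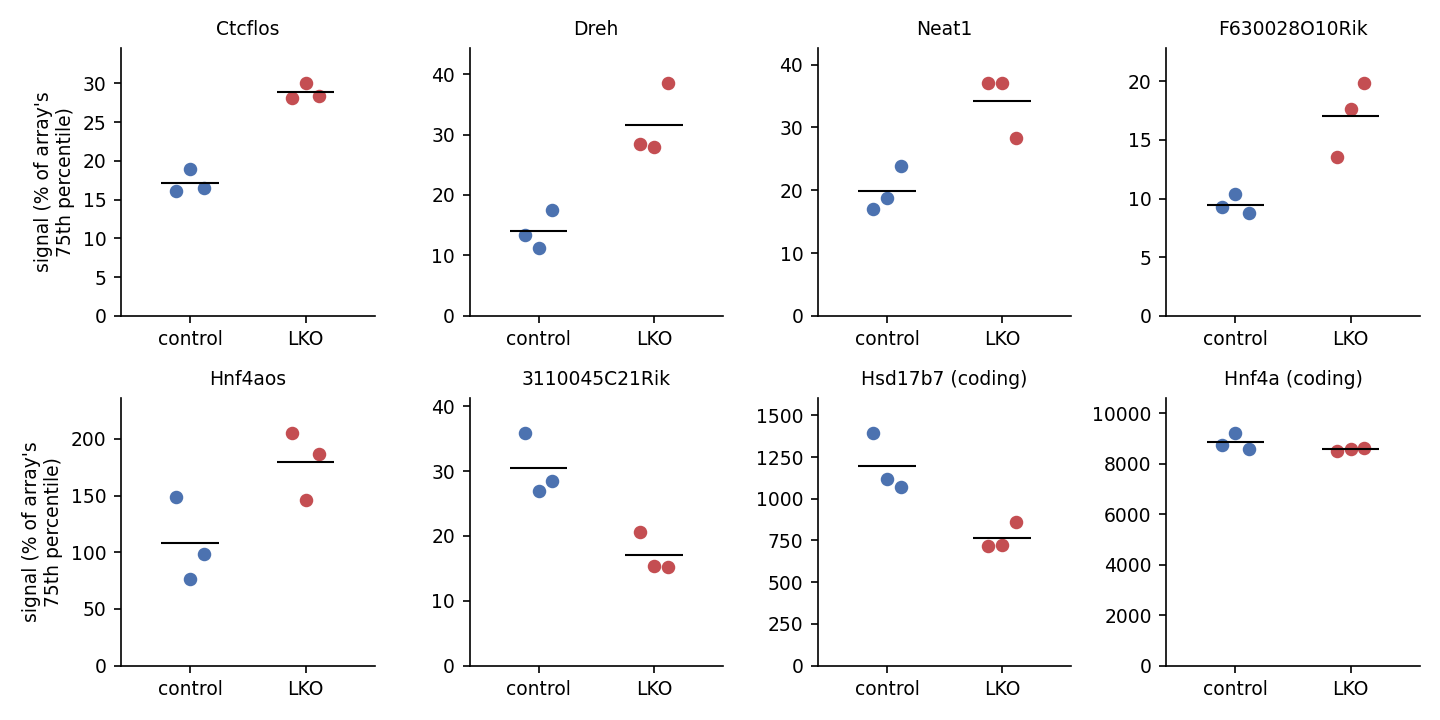
Signal of 6 noncoding members and 2 coding neighbours in each mouse, as a percent of the array's 75th percentile, blue for control and red for LKO, with the group mean as a line. In the panel of 3110045C21Rik controls run from 27.0% to 35.9% and LKO mice from 15.3% to 20.6%, and the panel of Hsd17b7 shows the same order.

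Other head-to-head pairs did not share such a shift. Of 67 pairs of a member and a detected coding gene whose starts lie within 1000 bases on opposite strands, 41 had the same sign. The pair of 3110045C21Rik and Hsd17b7 was the 1 in which both genes reached an unadjusted p under 0.05. Of the 67 noncoding genes 8 reached it, as did 10.66% of all detected coding probes. Whether 1 such pair exceeds those shares was not tested. Pearson's r across the 67 pairs was 0.36, a description over genes of the same livers, and 0.18 without that pair. Overlapping pairs on opposite strands showed less: 68 of 125 had the same sign and r was 0.07.

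Some antisense genes had values unlike those of their partners, while others shared a direction with them. Hnf4aos, antisense to the hepatocyte factor gene Hnf4a, read 149%, 76.2% and 98.9% in controls and 206%, 146% and 187% in LKO, so LKO 2 lay just under control 1, and the change was 0.77 ± 0.26 (unadjusted p = 0.0199). The brighter Hnf4a probe read 8747%, 9240% and 8588% against 8507%, 8592% and 8639%, a change of -0.05 ± 0.08. In 2 of the 125 overlapping pairs known to lie on opposite strands both genes reached an unadjusted p under 0.05. They were Gm10190 (0.27) with Arhgef33 (0.98), and Gm19710 (-0.48) with Ubap2l (0.24), the latter with opposite signs. In the same-strand pair of 1810013A23Rik (-0.27) and Ppard (-0.31) both genes also reached that p. Ppard encodes a nuclear receptor for fatty acids. Transcripts of 1 of the 2 genes could bind both probes there. These counts leave out 105 overlapping pairs whose strands the tables do not give, and in 1 of them, Kcnq1ot1 with Kcnq1, both genes also reached that p with opposite signs.

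**Figure D5:**
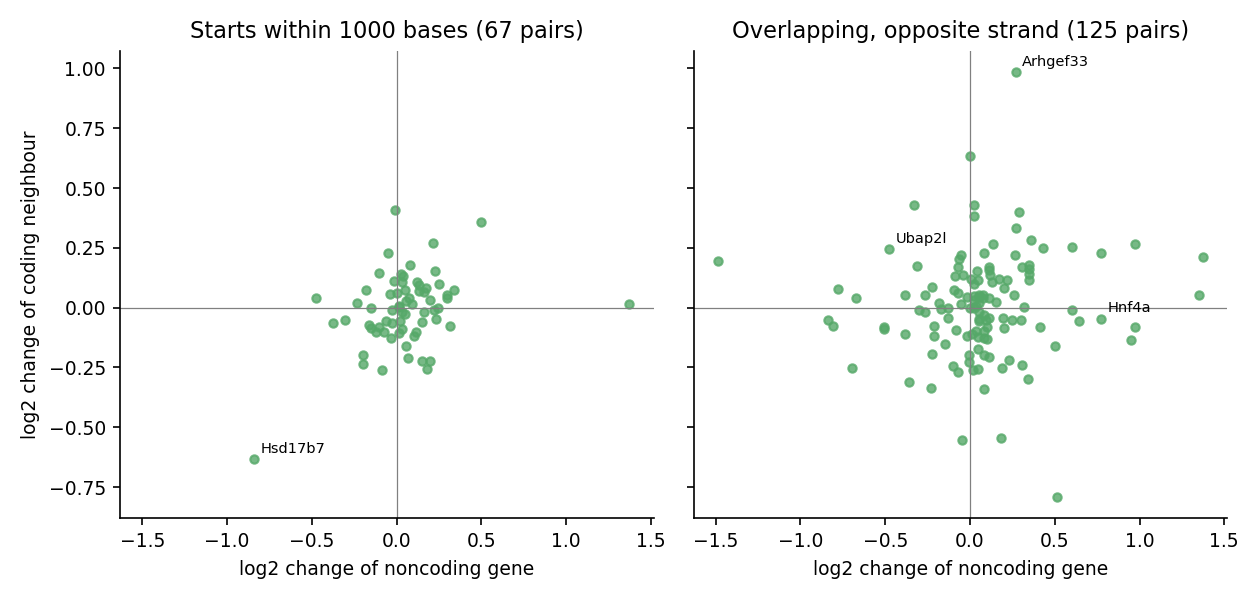
Change of each member gene (horizontal, log2 LKO minus control) against that of its detected coding neighbour (vertical), for 67 pairs with starts within 1000 bases (left) and 125 overlapping pairs on opposite strands (right). The pair with Hsd17b7 lies alone at the lower left of the left panel, at -0.84 and -0.63.

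A handful of members were seen in 1 genotype only. Their dim genotype was set, array by array, to its measured signal or to the array's lowest signal flagged well above background, whichever was larger. That lowest signal is not a detection limit of each probe, so the folds are not strict bounds. On that scale 2900009J06Rik was 2.34-fold higher in LKO, 1 probe of Lncpint, an lncRNA known as a p53 target, 1.65-fold and AA413626 1.31-fold. On the same scale 1700039E22Rik was 2.54-fold higher in controls than in LKO. For 4930505K14Rik and Plet1os the signals in LKO, though not well above background, exceeded that lowest signal, so 1.29-fold and 1.28-fold higher in controls are the measured values. With normexp the log2 changes were smaller: 0.348 for 2900009J06Rik, 0.174 for this Lncpint probe, 0.069 for AA413626 and -0.454 for 1700039E22Rik. They were -0.075 for 4930505K14Rik and -0.089 for Plet1os. None of the 6 passed the threshold, with limma adjusted p from 0.217 to 0.471. A second Lncpint probe, seen on all 6 arrays, had a change of 0.39 ± 0.21 with overlapping groups.

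Where a gene had several member probes, they mostly shared a direction. Of 35 such genes 26 had probes of 1 sign, and the median range between the probes of a gene was 0.11. Gm12992 was a case where they differed in size: its bright probe read 604%, 534% and 554% in controls and 722%, 1021% and 849% in LKO, a change of 0.60 ± 0.14, while its dim probe was at 0.02. Both probes of Pvt1, a lncRNA beside Myc, leaned upward at 0.36 and 0.28 with overlapping groups. The liver lncRNA 0610005C13Rik read 2043%, 1755% and 2298% in controls and 2448%, 2531% and 2433% in LKO, without overlap, a change of 0.29 ± 0.12.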

How the data were processed

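The 6 one-colour Agilent arrays carried Cy3-labelled cRNA from 0.1 µg of total RNA per the labels' protocols. The deposited processed signals are intensities from Agilent Feature Extraction 11.5.1.1, with the background already subtracted, per the file headers. The deposited quality flags are other values set by that software. The authors' value table equals these intensities times 1 constant per array. Signals were taken as log2 minus each array's 75th percentile, outlier spots were left out and spots of a probe averaged. Probes well above background on all 3 arrays of 1 genotype (27950) were fitted with limma 3.58.1 in R 4.3.3, with two-sided p-values adjusted by Benjamini-Hochberg over the whole table, and the fit was tested on simulated data. Accessions were matched to a RefSeq table (GRCm38.p6), 2407 of 2477 noncoding probes finding a gene; neighbours come from that table, strands from its promoter and microRNA tables. A gene with several probes was paired through its brightest. Members and lists were chosen with earlier results of these data known. Genes were named by rule: the 10 smallest p per direction among members on all 6 arrays, the 10 brightest, those seen in 1 genotype only and a list of known lncRNAs; not all are printed, and other genes were chosen after their values were seen. The labels do not say how the mice relate, and p-values measure the spread between them. Replicate numbers did not pair the mice (correlations of deviations 0.02, -0.04 and -0.04). The tested alternatives were other scalings, a background model (normexp on the median signals), filters, fits and leaving out each mouse. The number of arrays limits the precision.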

Additional observations from a re-analysis of the deposited data

How the results depend on the processing

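No setting made a noncoding member of the main selection pass an adjusted p of 0.05; without LKO 2 the lncRNA 4933436H12Rik, above background on 3 arrays and outside the selection, did (2.41, adjusted p 0.0226), so the count ran from 0 to 1 over the settings without 1 mouse. Over all probes that count was 6, 13 with median scaling, 2 with no filter on dim probes, 1 on all 6 arrays, 25 with trend and robust eBayes, 4 with the replicate block and 2 (without LKO 3) to 33 (without LKO 1) without 1 mouse. Members higher at an unadjusted p under 0.05 numbered 51 with median scaling. Without 1 mouse, 802 to 828 noncoding probes were tested, and 61 to 93 were higher and 23 (without LKO 3) to 43 lower. With no filter all 2477 noncoding probes were tested, not only members, and 111 were higher and 67 lower. With the replicate block 78 members were higher and 30 lower. The replicate numbers did not pair the mice.

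Median changes with median scaling were 0.00 for noncoding probes, -0.059 for coding probes, 0.078 for snoRNA hosts and -0.074 for pseudogenes; coding probes stood at 0.025 with no filter. Without 1 mouse they ran from 0.22 to 0.48 for structural RNAs (25 to 28 probes higher), 0.10 to 0.17 for snoRNA hosts, -0.06 to 0.01 for pseudogenes, 0.04 to 0.06 for noncoding and -0.02 to 0.00 for coding probes. With normexp the medians were 0.204 for structural RNAs and 0.025 for noncoding probes. Class medians were added after seeing the data. The signal gap was 1.18 with normexp, 3.06 with no filter, 1.51 on all 6 arrays and 1.64 to 1.72 without 1 mouse. Detection was 29.6% of noncoding and 60.5% of coding probes on all 6 arrays, 45.1% and 72.3% on at least 1 array, and 32.4% to 33.4% and 63.3% to 64.4% without 1 mouse.

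Of 90 named probes 82 kept their sign in every setting run. Signs turned for Mir100hg and D7Ertd143e with normexp (-0.015 and -0.014), for D7Ertd143e with median scaling (-0.004), for Rn28s1 with quantile normalization (-0.002) and for the dim Gm12992 probe with both (-0.001 quantile, -0.03 median scaling). Without 1 mouse the values ran from -0.016 to 0.354 for Rprl1, -0.001 to 0.247 for Rn28s1, -0.024 to 0.253 for the Kcnq1ot1 probe nearest 0, -0.107 to 0.019 for Rnu12, -0.044 to 0.087 for that Gm12992 probe and -0.009 to 0.124 for Rpl13a. Normexp started from median foreground and background signals in place of processed ones and added 50 to each; the cause of its smaller values for dim members and of the turns was not tested. Dim signals limit the precision of these members.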
